A study of Caenorhabditis elegans with 2 samples.

Results

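The regions described here are those that eGFP-LSY-2 ChIP-seq listed at the transfer RNA (tRNA) genes of Caenorhabditis elegans. They are the regions of the deposited list for both replicates together whose summit lay within 200 bp of an annotated nuclear tRNA gene, and 349 of the 30000 listed regions were chosen in this way. That list holds peaks together with background, so a listed region is not by itself a peak. A region is called thresholded below where it is also in the authors' shorter list of 2182 regions kept by their cutoff on the irreproducible discovery rate (IDR), a score of how alike 2 replicates rank a region. The 2182 thresholded regions are the 2182 regions of highest signal of the longer list, so thresholded also means a signal of at least 45.8. The signal is the value that the authors' caller gave each region.

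The material was whole L2 larvae of both sexes of strain OP240, which is unc-119(ed3) III and carries wgIs240, an integrated transgene that expresses the C2H2 zinc finger transcription factor LSY-2 with an eGFP tag. Chromatin was immunoprecipitated from 2 biological replicates of this 1 strain, and the antibody is labelled by its target, lsy-2. The promoter that drives the transgene and the cells that express it are not given in the labels, so each region is a summary over the whole animal. There is no second condition, and each result is therefore a description of these 2 libraries, with no p-value.

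tRNA genes are transcribed by RNA polymerase III from promoter elements inside the gene, the A box and the B box. TFIIIC recognises these elements and places TFIIIB just upstream of the start of transcription, and TFIIIB recruits the polymerase. The genome carries many identical copies of most tRNA genes, which differ mainly in the sequence around them. LSY-2 itself is known from the worm's nervous system, where it acts in making the left and right ASE neurons differ.

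A selection of tRNA genes under strong thresholded regions, at most 1 for each amino acid, is shown so that the position of each summit can be read against the gene. Each line runs 5′ to 3′ in the direction of transcription, with the 60 bases before the gene and the 15 bases after it in lower case and the gene in capitals (RefSeq, WBcel235, the assembly of ce11).
R04A9.t1 (tRNA-Gln, chrX:410331-410477, + strand): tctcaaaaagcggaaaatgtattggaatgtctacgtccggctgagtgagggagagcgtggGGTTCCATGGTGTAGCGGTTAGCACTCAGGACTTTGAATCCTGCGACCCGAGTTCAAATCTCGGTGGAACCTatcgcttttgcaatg
W09D6.t2 (tRNA-Pro, chrIII:11066833-11066979, - strand): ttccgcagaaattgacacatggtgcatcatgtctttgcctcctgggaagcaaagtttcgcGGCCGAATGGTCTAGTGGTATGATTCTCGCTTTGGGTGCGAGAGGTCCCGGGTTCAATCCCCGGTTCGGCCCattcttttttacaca
K11H12.t1 (tRNA-Sec, chrIV:658121-658281, + strand): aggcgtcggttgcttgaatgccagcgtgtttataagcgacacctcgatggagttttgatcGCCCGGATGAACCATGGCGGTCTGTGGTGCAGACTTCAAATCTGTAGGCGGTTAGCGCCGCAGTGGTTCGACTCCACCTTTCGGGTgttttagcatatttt
C33G3.t2 (tRNA-Lys, chrX:14063931-14064078, - strand): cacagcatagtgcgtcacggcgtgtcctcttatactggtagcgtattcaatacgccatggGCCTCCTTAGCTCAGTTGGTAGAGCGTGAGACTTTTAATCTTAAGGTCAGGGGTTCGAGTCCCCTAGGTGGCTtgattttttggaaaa
W02H3.t1 (tRNA-Leu, chrX:11095613-11095769, + strand): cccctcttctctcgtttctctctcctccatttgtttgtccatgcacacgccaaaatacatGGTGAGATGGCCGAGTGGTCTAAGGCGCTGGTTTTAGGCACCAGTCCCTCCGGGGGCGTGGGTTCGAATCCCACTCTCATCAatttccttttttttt
W09G10.t1 (tRNA-His, chrII:3521472-3521618, - strand): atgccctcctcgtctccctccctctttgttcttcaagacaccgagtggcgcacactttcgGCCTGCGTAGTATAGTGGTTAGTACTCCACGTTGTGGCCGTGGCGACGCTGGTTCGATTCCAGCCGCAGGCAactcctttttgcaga
M02F4.t1 and C28G1.t1, whose regions had higher signals than all of these, and C37A2.t1, whose region ranked above that of W09G10.t1, are not printed. The summits of the regions shown lay in the lower-case bases before the gene or, for R04A9.t1 and K11H12.t1, further upstream than the bases printed. The B box core GTTCGANNC, searched on the strand of the gene, begins at base 66 of K11H12.t1, 53 of C33G3.t2, 62 of W02H3.t1 and 52 of W09G10.t1. R04A9.t1 and W09D6.t2 do not hold these letters.

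Identical genes were found both with and without a summit, and 2 such pairs are given. The first pair is W09D6.t2, which has a thresholded summit and is printed above, and ZK970.t2, which has none. In the second pair ZK563.t1 has the thresholded summit and W02G9.t1 has none.
ZK970.t2 (tRNA-Pro, chrII:10304951-10305097, + strand): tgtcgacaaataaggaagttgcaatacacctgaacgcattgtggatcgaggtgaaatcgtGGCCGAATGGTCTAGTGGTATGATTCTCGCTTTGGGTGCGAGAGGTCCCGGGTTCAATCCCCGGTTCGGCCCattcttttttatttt
ZK563.t1 (tRNA-Thr, chrX:3371407-3371553, - strand): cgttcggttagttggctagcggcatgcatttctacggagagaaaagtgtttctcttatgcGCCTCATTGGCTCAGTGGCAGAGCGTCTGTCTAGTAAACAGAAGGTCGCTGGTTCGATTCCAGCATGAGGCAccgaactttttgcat
W02G9.t1 (tRNA-Thr, chrV:2664652-2664798, - strand): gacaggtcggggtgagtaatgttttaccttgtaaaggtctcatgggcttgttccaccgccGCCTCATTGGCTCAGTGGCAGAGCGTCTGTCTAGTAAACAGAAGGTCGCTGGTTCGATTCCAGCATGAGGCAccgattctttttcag
ZK970.t2 is the counterpart of W09D6.t2 above: their genes are the same letter for letter, while 15 of the 60 bases before them are the same at the same position. ZK563.t1 and W02G9.t1 also have 1 gene sequence, and 20 of their 60 bases before the gene match by position. ZK970.t2 and W02G9.t1 had no listed summit within 200 bp. ZK970.t2 lies in more repeated sequence than W09D6.t2, with 39.7% against 22.8% of the 36-mers of its window found again in the genome. For ZK563.t1 and W02G9.t1 the shares were 21.9% and 19.4%.

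Regions at tRNA genes were thresholded more often than the list as a whole. Of the 349 regions, 113 were thresholded (32.4%, 95% Wilson interval 27.7 to 37.5%), against 7.27% of all 30000 regions. Regions at snoRNA and snRNA genes, which carry other short noncoding transcripts, reached 42.4% (101 of 238, interval 36.3 to 48.8%). Regions in promoter windows of protein-coding genes, at none of these small RNA genes, reached 17.5% (1351 of 7734), and the remaining regions 2.85% (617 of 21679). A promoter window here holds the 1000 bp before the annotated 5′ end of a protein-coding gene and the first 200 bp after it. The 113 regions made up 5.18% of the thresholded list. The intervals cover only the number of regions, and neighbouring regions are not independent.

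Up to 200 bp, the thresholded share was lower at greater distance from the tRNA gene. Within 50 bp of a gene, 103 of 254 regions were thresholded (40.6%), and from 50 to 100 bp 8 of 50 were (16%). From 100 to 150 bp the count was 2 of 30, and from 150 to 200 bp 0 of 15. Outside the limit it was 1 of 16 from 200 to 250 bp, 2 of 9 from 250 to 300 bp and 3 of 52 from 300 to 500 bp. Just inside the limit, the regions at F08G5.t1 (193 bp away) and F11A1.t2 (199 bp) had signals of 13.9 and 15.8. Just outside it, those at C06B8.t3 (201 bp) and Y70C5A.t1 (203 bp) had signals of 13.0 and 21.0, and none of these 4 regions was thresholded. F08G5.t1 and C06B8.t3 each also had a stronger, thresholded region with its summit inside the gene, with signals of 51.8 and 61.4. Other weaker regions counted from 100 to 200 bp also lay beside a thresholded region of the same gene, as at T21B4.t1 (120 bp).

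The signal at tRNA genes was moderate. The 113 thresholded regions had a median signal of 74.2, with quartiles of 60.8 and 102 and a range of 45.8 to 224, where the other thresholded regions had a median of 84.0. The highest ranked 306 in the whole list, so 0 of the 200 regions of highest signal lay at a tRNA gene. Among the highest 500 there were 7 and among the highest 1000 there were 36. In the upper 50% of the thresholded list lay 43 of the 113 (38.1%, interval 29.6 to 47.3%). Almost all of them, 110 of 113, had the common width of 364 bp. The lower median at tRNA genes did not hold outside promoter windows. There the median was 74.73 for the 90 thresholded regions at tRNA genes and 70.01 for other thresholded regions. Inside the windows it was 66.94 for the 23 at tRNA genes and 95.03 for the others. The part of promoter windows in the difference between 74.2 and 84.0 was not tested.

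The strongest region covered chrX:3035939-3036302, between protein-coding genes, with its summit 43 bp upstream of M02F4.t1 (WBGene00023110), a tRNA-Gly gene. Its signal was 224 for both replicates together, 141 in replicate 1 and 81.5 in replicate 2. The same summit lay within 200 bp of M02F4.t2, a tRNA-Glu gene. The next, at C28G1.t1 (WBGene00022947, tRNA-Glu), was a region 97 bp wide at chrX:8835991-8836087 in the promoter windows of C28G1.2 and sec-15, with a signal of 198 (120 and 76.5 in replicates 1 and 2). Its summit lay 106 bp from the tRNA gene. The region at R04A9.t1 (WBGene00023117, tRNA-Gln), chrX:410124-410487, in an intron on the opposite strand, had a signal of 178 (114 and 64.6). In each of these regions replicate 1 had the higher signal, and the 3 ranked between 283 and 374 in replicate 1 and between 357 and 484 in replicate 2.

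The single tRNA-Sec gene of the annotation, K11H12.t1 (WBGene00023106), which serves the insertion of selenocysteine, had the highest region of chromosome IV at chrIV:657935-658298. Its signal was 163, with 119 in replicate 1 and 46.5 in replicate 2, and it lay outside promoter windows with no other noncoding gene within 200 bp. The tRNA-Pro gene W09D6.t2 (WBGene00014553) had the highest region of chromosome III, chrIII:11066786-11067149, with a signal of 177 (96.8 and 78.1). Neighbouring W09D6.t1, an identical tRNA-Pro gene, shares that summit. Others among the 10 highest were Y59E1B.t2 (tRNA-Pro, 162), C33G3.t2 (tRNA-Lys, 160), W02H3.t1 (tRNA-Leu, 145), F46G11.t2 (tRNA-Pro, 143) and C37A2.t1 (tRNA-Cys, 139). Of these, W02H3.t1 had the lower signal in replicate 1, 64.4 against 80.5 in replicate 2, and the other 4 the higher one.

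The highest regions of the remaining chromosomes were weaker. On chromosome II it was that of W09G10.t1 (tRNA-His), with a signal of 138 and 67.6 in replicate 1. This region, chrII:3521502-3521592, is 91 bp wide, and no summit of replicate 2 fell inside it. The nearest summit of replicate 2 was 7 bp away, in a region with a signal of 71.5. On chromosome V it was that of T23F1.t1 (tRNA-Lys, chrV:15465008-15465371), with a signal of 127 (65.0 and 61.9), in the promoter windows of pqn-71 and rocf-1. F41D9.t3 (tRNA-Asn, chrX:8404295-8404658) had 137 (70.6 and 73.3), in an intron and away from other noncoding genes. At the other end, the lowest thresholded regions were at C52G5.t1 (tRNA-Val, 46.5) and C03A3.t1 (tRNA-Arg, 45.8), and the highest not thresholded at F55F3.t1 (tRNA-Lys, 45.8, under the lowest thresholded signal by less than the rounding) and Y65A5A.t1 (tRNA-Ala, 45.2).

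Both replicates listed these regions. A summit of replicate 1 fell inside all 113 thresholded regions and one of replicate 2 inside 112. That is near the 99.3% and 99.2% of the other thresholded regions, so it is not particular to tRNA genes. In replicate 1 their signal ran from 19.2 through a median of 45.7 to 141, and in replicate 2 from 10.2 through 28.5 to 81.5. Among the 2182 highest regions of replicate 1 there was an overlapping region for 108 of the 113 (95.6%), and among those of replicate 2 for 90 (79.6%). For the other thresholded regions these shares were 89.5% and 86.0%, so the tRNA regions were above them in replicate 1 and below them in replicate 2. Both held for 86 (76.1%, interval 67.5 to 83.0%), beside 76.8% of all thresholded regions. Among the 236 regions at tRNA genes that were not thresholded, 14 overlapped the highest of both replicates (5.93%), beside 0.597% of all regions that were not thresholded and 6.14% of all regions. Neighbouring regions can overlap the same region of a replicate.

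Replicate 1 ranked the tRNA regions higher than replicate 2 did. Of the 112 regions with a value in both, 76 had the better rank in replicate 1 (67.9%, interval 58.7 to 75.8%), where 1032 of 2042 other thresholded regions did (50.5%). Their median rank was 1200 in replicate 1 and 1441 in replicate 2, against 1072 and 1067 for the others. The ratio of signal in replicate 1 to replicate 2 had a median of 1.62 (log2 0.70, SD 0.55 over the 112 regions), beside 1.42 (log2 0.51) for the others. The replicates were not scaled to each other, so the ranks rather than the ratio carry the comparison. Across the 112 regions the 2 replicates correlated with Pearson r = 0.62 on log10 signal and Spearman rho = 0.59, against 0.89 and 0.77 across the 2042 others, whose signal spans a wider range.

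Some members differed strongly between the replicates. B0212.t1 (tRNA-Pro) had a signal of 46 in replicate 1 and 10.2 in replicate 2. F38G1.t2 (tRNA-Asp) had 55.5 and 14.2, and H08J11.t3 (tRNA-Gln) 39.5 and 10.2. In the other direction, Y39B6A.t9 (tRNA-Phe) had 20.9 in replicate 1 and 36.2 in replicate 2. The tRNA-Trp gene sup-7, known for mutant alleles that suppress amber stop codons, had 19.2 and 26.7, and ZK678.t1 (tRNA-Leu) 28.6 and 36. These 6 are the thresholded regions whose ratio lay farthest from the median of the thresholded list in each direction.

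**Figure D1:**
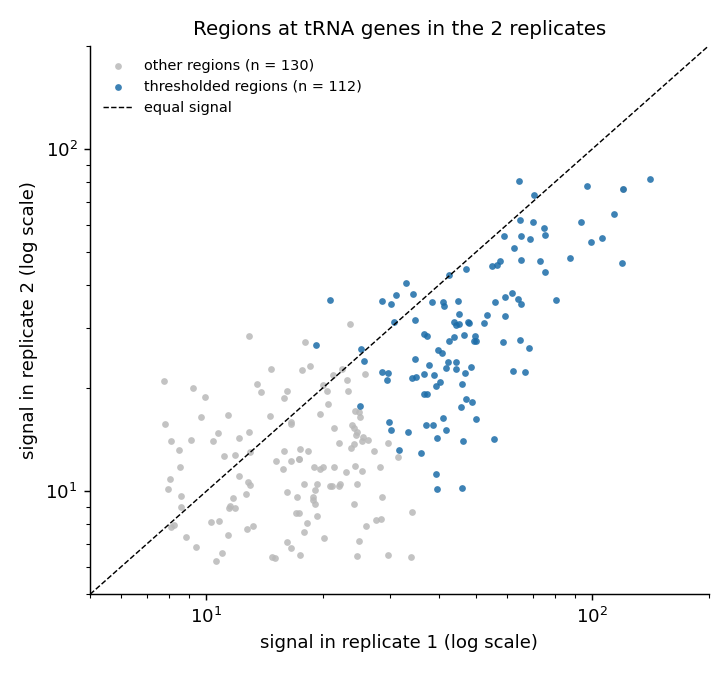
Signal of each region at a tRNA gene in replicate 1 (x axis) and replicate 2 (y axis), both on log scales; blue points are the 112 thresholded regions and grey points the 130 others with a value in both replicates, and the dashed line marks equal signal. Most blue points lie below the line, with a median ratio of replicate 1 to replicate 2 of 1.62.

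The summits of thresholded regions gathered just upstream of the tRNA genes. Measured from the 5′ end of the nearest gene along transcription, their median position was -20 bp, with quartiles of -32 and 18 bp. Upstream of the gene lay 75 summits, inside it 28 and downstream 10, and 67 of the 113 (59.3%) fell in the 50 bp next to the 5′ end. The summits that were not thresholded were spread more widely, with a median of 21 bp, quartiles of -35.3 and 101 bp, and 63 of 236 (26.7%) in those 50 bp. Of these, 103 lay upstream, 57 inside and 76 downstream. Some of them lay beside a thresholded region of the same gene, as at T21B4.t1 (193 bp) and F08G5.t1 (-193 bp). The 2 groups are thus not all separate sites, and the part of such regions in the wider spread was not tested. The rule limits only the distance to a gene and not the side.

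The median summit lay upstream in both replicates, less clearly in replicate 1. Among the 2182 highest regions of each replicate, the median was -10 bp for the 119 at tRNA genes in replicate 1 and -22 bp for the 101 in replicate 2. In replicate 1, 54.6% of these summits lay upstream, 36.1% inside the gene and 42.9% in the 50 bp next to the 5′ end. In replicate 2 the shares were 66.3, 23.8 and 55.4%. The median was -20 bp for the 98 thresholded regions with 1 tRNA gene within 500 bp and -21.5 bp for the 90 outside promoter windows. At snoRNA and snRNA genes the median of 101 thresholded summits was -34 bp. An upstream summit is thus not particular to tRNA genes in these data.

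**Figure D2:**
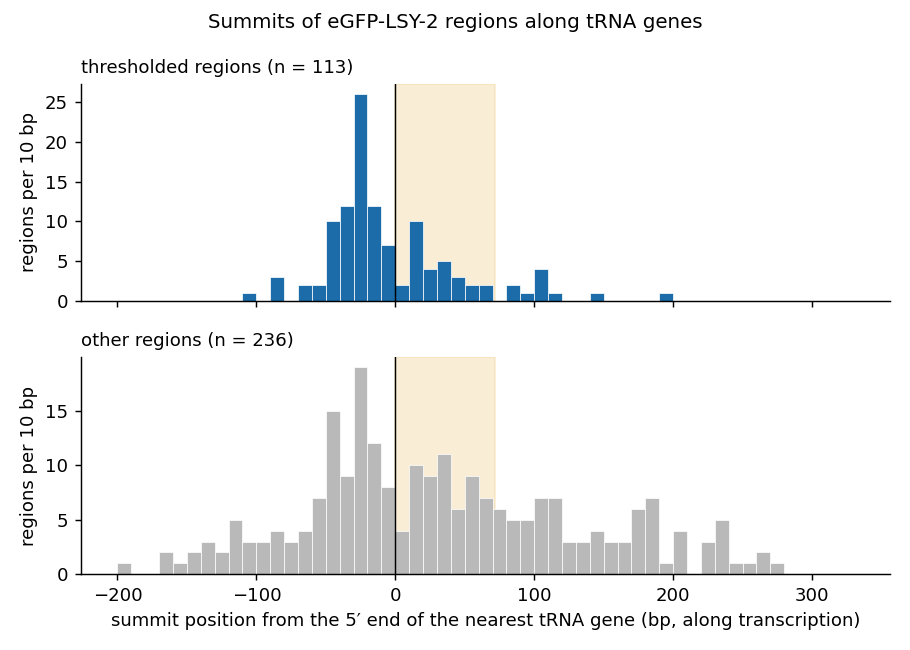
Number of regions per 10 bp by the position of the summit from the 5′ end of the nearest tRNA gene, along transcription, for the 113 thresholded regions (top) and the 236 others (bottom); the shaded span is the median gene length of 72 bp. The thresholded summits peak upstream of the 5′ end, at a median of -20 bp, and the others extend further downstream.

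Thresholded regions at tRNA genes were less often at protein-coding promoters than other thresholded regions. Of the 113 thresholded regions 23 (20.4%) had their summit in a promoter window, against 67.1% of the other thresholded regions. The contrast with the whole list was smaller: 65 of all 349 regions at tRNA genes and 7876 of all 30000 regions lay in such a window. Inside the windows 23 of 65 regions at tRNA genes were thresholded (35.4%, interval 24.9 to 47.5%), and outside them 90 of 284 (31.7%, interval 26.6 to 37.3%), so the intervals overlap. Over all regions of the list the shares were 17.9% inside and 3.48% outside. Without replicate 1 the difference of 3.69 percentage points between inside and outside became -1.08, and without replicate 2 it was 8.48. With a window of 500 bp upstream to 100 bp downstream it was 21.2 percentage points. Of the 113 regions, 1 lay within 200 bp of another small RNA gene.

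Counted by gene, a summit was listed within 200 bp of 351 of the 612 nuclear tRNA genes (57.4%) and a thresholded one within 200 bp of 122 (19.9%, interval 17.0 to 23.3%). The 2182 highest regions of replicate 1 alone gave 128 genes and those of replicate 2 gave 109, or 19.4 ± 2.20% (SD, n = 2). By the same distance the share was 21.7% of snoRNA genes, 16.3% of snRNA genes, 2.68% of miRNA genes and 7.32% of protein-coding genes over their whole span. Around the 5′ ends of protein-coding genes it was 4.6%. A single summit can serve 2 neighbouring tRNA genes, as it did for 10 of the 113 regions, and 1 gene had 2 thresholded summits.

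Annotated tRNA pseudogenes, copies that RefSeq marks as not functional, stood apart from the genes. Of 209, a thresholded summit lay near 2, which is 0.957% (interval 0.263 to 3.42%), T08B2.t1 and D1046.t1. They are named for their small number, after their values were seen. The regions had signals of 127 and 57.6, and the first lay in a promoter window. Neither pseudogene holds the B box core, although 144 of the 209 do (68.9%), close to the 72.1% of tRNA genes. Pseudogenes lie in less repeated sequence, with a median of 0.420% of their 36-mers repeated. Where under 10% of 36-mers were repeated, 2 of 145 pseudogenes and 10 of 71 tRNA genes (14.1%) had a thresholded summit.

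tRNA genes of every standard amino acid were represented. At least 2 genes for each of the 20 standard amino acids, and the tRNA-Sec gene, had a thresholded summit. The highest shares among them were 11 of 39 tRNA-Ser genes (28.2%, interval 16.5 to 43.8%) and 5 of 20 tRNA-Met genes (25%). The lowest were 2 of 20 tRNA-Asn genes and 2 of 20 tRNA-His genes (10%, interval 2.79 to 30.1%). The interval of each of the 20 standard amino acids holds the share over all tRNA genes. Of 29 genes with an intron, 5 had a thresholded summit (17.2%), and of 583 without one, 117 (20.1%). The 5 genes with no assigned amino acid had 0.

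**Figure D3:**
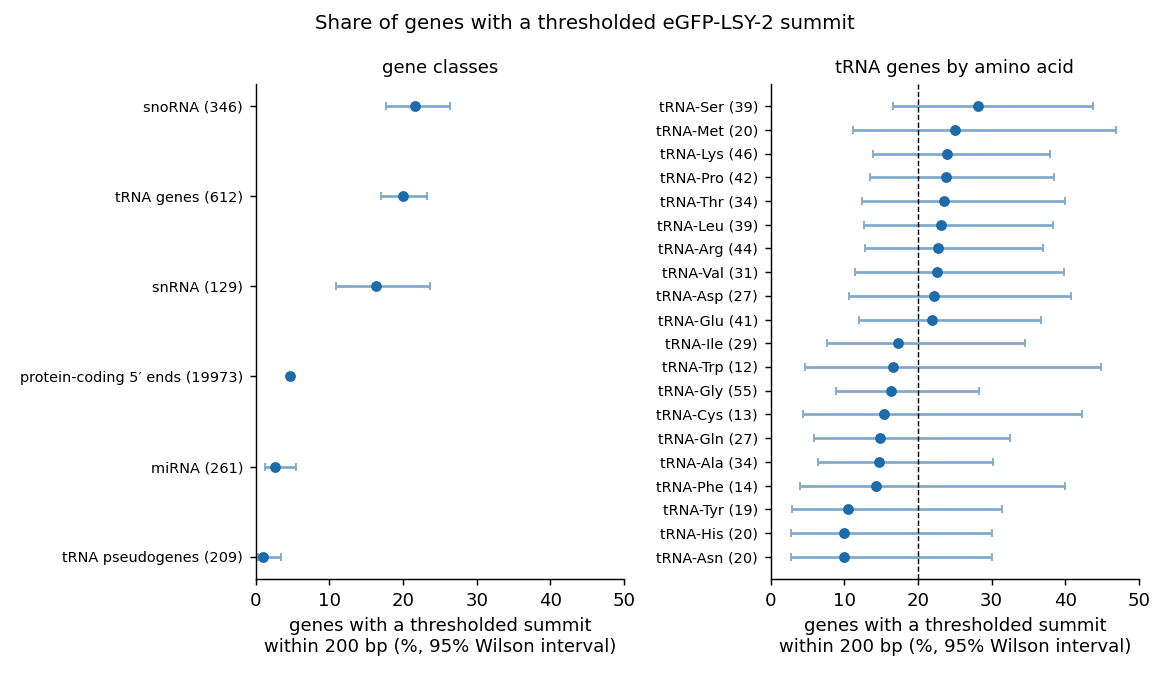
Share of genes with a thresholded summit within 200 bp, in percent with 95% Wilson intervals, by gene class (left) and for tRNA genes by amino acid (right), with the number of genes in brackets; amino acids with under 10 genes are left out, and the dashed line marks all tRNA genes. tRNA genes, at 19.9%, lie near the snoRNA genes and above the tRNA pseudogenes, and the interval of each amino acid crosses the line.

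The X chromosome holds 276 of the 612 tRNA genes. A thresholded summit lay at 56 of them (20.3%, interval 16 to 25.4%) and at 66 of 336 autosomal genes (19.6%, interval 15.8 to 24.2%). Among autosomes the share ran from 10 of 78 genes on chromosome V (12.8%, interval 7.12 to 22%) to 19 of 64 on chromosome III (29.7%, interval 19.9 to 41.8%). Their intervals overlap. Of the 299 thresholded regions on X, 51 lay at tRNA genes (17.1%), against 113 of 2182 over all chromosomes (5.18%).

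Position in the neighbourhood of other tRNA genes went with the share. Of 341 tRNA genes with no other tRNA gene within 2000 bp, 84 had a thresholded summit (24.6%, interval 20.4 to 29.5%), and of 271 with such a neighbour 38 did (14%, interval 10.4 to 18.7%). In the highest regions of replicate 1 the counts were 84 and 44, and in those of replicate 2 they were 76 and 33. On X they were 35 of 123 (28.5%, interval 21.2 to 37.0%) and 21 of 153 (13.7%, interval 9.16 to 20.1%). On autosomes they were 49 of 218 (22.5%, interval 17.4 to 28.5%) and 17 of 118 (14.4%, interval 9.19 to 21.9%). The 2 autosomal intervals overlap. The distance of 2000 bp is one choice. At 500 bp the difference of 10.6 percentage points became 5.61, and at 5000 bp it was 11. Whether a gene lay between protein-coding genes (64 of 319, 20.1%), in an intron on the same strand (32 of 161, 19.9%) or in one on the opposite strand (24 of 122, 19.7%) left the share within 1 percentage point. Of 95 genes within 500 bp of a protein-coding 5′ end, 27 had a thresholded summit (28.4%, interval 20.3 to 38.2%), and of 81 farther than 5000 bp 11 did (13.6%, interval 7.76 to 22.7%). The 3 bins between them, from 500 to 1000, 1000 to 2000 and 2000 to 5000 bp, had 17.8, 19.9 and 19.5%, so the share did not fall steadily with distance, and the intervals of the nearest and farthest bins overlap. In the highest regions of replicate 2 the nearest bin had 20 of 95 genes (21.1%) and the farthest 11 of 81, and in those of replicate 1 they had 27 and 12.

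The B box letters were about as frequent in genes with a summit as in the rest. The A box was not searched. The B box core GTTCGANNC was in 89 of the 122 genes with a thresholded summit (73.0%) and in 352 of the other 490 (71.8%, interval 67.7 to 75.6%, which holds the former). A wider core, GTTCNANNC, was in 95.9% of all 612 tRNA genes. In the 50 bp to each side of the summit, on either strand, the core was in 17 of 113 windows of thresholded regions (15%) and in 61 of 236 of the others at tRNA genes (25.8%). Over all 30000 regions it was in 0.897%. The rule places the regions at genes that mostly hold the core, so the contrast with all regions follows from the rule. The core begins at a median of base 53 of the gene, so the window of a summit upstream of the gene ends before a core at that base. Upstream summits made up 66.4% of the thresholded regions and 43.6% of the others at tRNA genes. The part of summit position in the 15% and 25.8% was not tested.

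Identical copies of a tRNA gene differed in their signal. The 612 genes have 200 distinct sequences, and 469 genes fall into 57 sets of 2 or more identical copies. In 41 sets some copies had a thresholded summit and others had none, in 2 sets every copy had one and in 14 sets no copy did. All 20 sets with 10 or more copies had at least 1, with shares of 6.67 to 36.4% and 66 of 317 copies in all.

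The largest set is a tRNA-Gly gene with 29 copies, of which 17 had a listed summit and 4 a thresholded one. The highest signal near a copy ran from 14.8 at T04D3.t3 to 224 at M02F4.t1, which shares its summit with a neighbouring tRNA-Glu gene. A tRNA-Lys gene with 25 copies had 8 with a thresholded summit, from a listed signal of 14.2 at K01A11.t1 to 111 at W03G11.t1, where the replicates gave 62.6 and 51.3. A tRNA-Pro gene with 24 copies had 7, from 12.7 at T22F3.t2 to 177 at W09D6.t2. The median share of repeated 36-mers in the window of 100 bp to each side of the gene was 20.6% for genes with a thresholded summit and 20.3% for those with a listed summit only or none. Of the 46 genes with 30% or more, 0 had a thresholded summit and 6 a listed one. The part of repeated sequence in these counts was not tested. The sources used here do not give the read length or how reads with several places were treated.

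**Figure D4:**
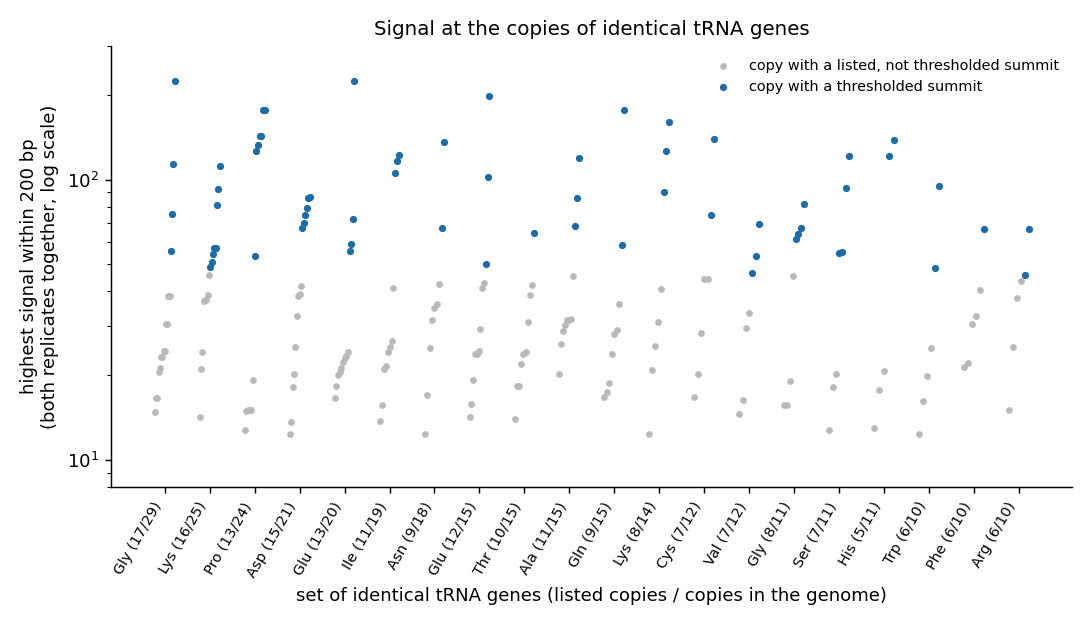
Highest signal within 200 bp of each copy (y axis, log scale) in the 20 sets of identical tRNA genes with 10 or more copies (x axis, listed copies over all copies); points in a set are ordered by signal, blue for a thresholded summit and grey for a listed one, and copies with no listed summit have no point. In every set the copies spread widely, as from 14.8 to 224 in the tRNA-Gly set.

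The bases before the gene differed between the groups. Among the 1024 words of 5 bases counted in the 60 bases upstream on the strand of the gene, TCTCT differed most in share between genes with and without a thresholded summit. It was picked from these data, so its shares are a description with no test. TCTCT was upstream of 46 of the 122 genes with a thresholded summit (37.7%), 48 of the 229 with a listed summit only (21.0%) and 28 of the 261 with none (10.7%). Upstream of all protein-coding genes, over the same 60 bases, it was in 12.3%. The overlapping word CTCTC was upstream of 38 of the 122 and 48 of the other 490. W02H3.t1, shown above, has 3 copies of TCTCT before its gene. ZK563.t1 has 1 copy, and its identical counterpart W02G9.t1 has 0.

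The shares of TCTCT are also given for subsets. These are parts of the genes from which the word was picked, and the lists of each replicate share many of those genes. A difference in the same direction is therefore no separate support. On X the shares were 23 of 56 genes with a thresholded summit (41.1%) and 22 of 220 without (10%). On autosomes they were 23 of 66 (34.8%) and 54 of 270 (20%). In the sets whose copies were of both kinds, they were 37 of 100 (37.0%) and 50 of 324 (15.4%). With the highest regions of replicate 1 they were 38.3% and 15.1%, and with those of replicate 2 37.6% and 16.1%. AGAGA, the same word on the opposite strand, was upstream of 21 of the 122 (17.2%), 16 of the 229 (6.99%) and 13 of the 261 (4.98%). Among thresholded regions the signal did not go with the word: the median was 70.9 for the 44 nearest a gene with TCTCT and 74.9 for the 69 nearest one without.

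TCTCT was not particular to tRNA genes. Within 50 bp of the summit, on either strand, it was in 56 of the 113 thresholded regions at tRNA genes (49.6%, interval 40.5 to 58.6%) and in 45.1% of the other thresholded regions (interval 43.0 to 47.3%). It was in 24.6% of the regions at tRNA genes that were not thresholded and in 24.9% of all regions. Base composition moved with the same split. The median GC content of these windows was 50.5% for thresholded and 44.6% for other regions at tRNA genes, and 47.5% and 34.7% for thresholded and other regions elsewhere. In the 60 bases before the gene, adenine made up 22.4% in genes with a thresholded summit, 26.0% in those with a listed summit only and 29% in those with none. Pyrimidines made up 57.5%, 54.9% and 53.8%, and GC 47.1%, 44.2% and 39.1%. The part of base composition in the share of TCTCT was not tested.

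**Figure D5:**
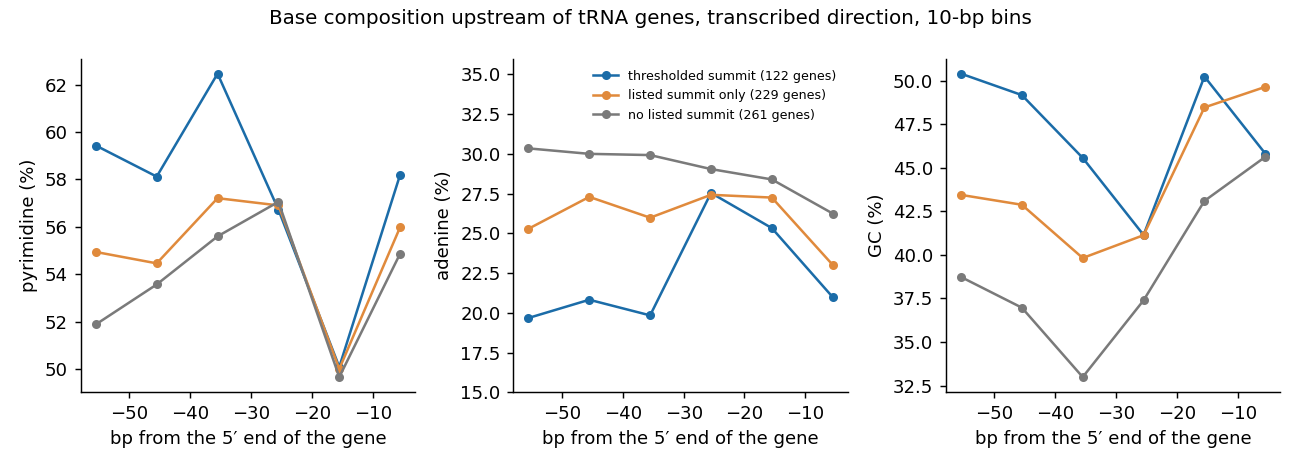
Pyrimidine, adenine and GC content (percent of bases, y axes not starting at 0) in 10-bp bins of the 60 bases upstream of tRNA genes, for the 122 genes with a thresholded summit, the 229 with a listed summit only and the 261 with none. The groups lie apart mainly from 60 to 31 bp upstream, where GC ran from 50.4 to 45.6% in genes with a thresholded summit and from 38.7 to 33.0% in those with no listed summit.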

How the data were processed

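The data are ChIP-seq region lists of 2 biological replicates (1 group). Per the deposited file lists, the authors aligned reads to ce11, called regions in each replicate and in both together against a control, and applied an IDR cutoff. Aligner and caller: not given in the sources used here. Reads of the control library were not analysed here, and the ce10 lists were not used here. The signal of a region is the deposited value; how the control enters it is not stated, and replicates share no common scale. Without read counts the depth is unknown.

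Genes were those of Ensembl release 115 (WBcel235), with amino acids, pseudogenes and sequence from RefSeq; all 612 nuclear tRNA genes had the same position in both. Python 3.11.15, numpy 2.4.6, pandas 2.3.3, scipy 1.17.1 and matplotlib 3.10.9 were used, and the functions were tested on simulated data. A replicate's value for a region is that of its strongest region with a summit inside it, which neighbouring regions can share.

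Named genes are those at the 10 strongest regions, the strongest of each chromosome and the 5 strongest away from promoter windows and other noncoding genes. They also include the 2 lowest thresholded and the 2 highest other regions, 3 in each direction by ratio of replicates, 2 on each side of 200 bp, and the extremes of the largest sets of identical genes. The third set, of tRNA-Pro, was added after its values were seen. Members and lists were chosen with earlier results of these data known. Alternatives were each replicate alone, a stricter list, other distances, windows and overlaps, other B box cores and near-identical sets; the split by neighbouring genes and the words of 5 bases were added after the data were seen.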

Additional observations from a re-analysis of the deposited data

How the results depend on the processing

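No paired analysis was possible because the 2 replicates form 1 group. Without 1 of the replicates, that is with the highest 2182 regions of the other standing in for the thresholded list, the thresholded share of regions at tRNA genes ran from 33.1 to 35%, the number of genes with a summit from 109 to 128 and the sets of identical genes with both kinds of copies from 38 to 39. The median signal ran from 0.865 to 0.898 times that of other regions, and 33.2 to 38.4% of regions overlapped the highest of the 1 replicate kept, against 28.7% for both. The summit position ran from -22 to -10 bp. The difference inside minus outside promoter windows ran from -1.08 to 8.48 percentage points, the difference in B box core from -2.21 to 2.74 (1.11 with both) and X minus autosomes from 0.841 to 1.22 (0.647 with both); the first and second changed sign. With the upper 50% of the thresholded list the thresholded share was 12.3%, the genes numbered 50 and the overlap with both replicates was 10.3%; a list with fewer regions lowers these by construction. The mixed sets there numbered 26. The signal ratio there was 0.790 (0.883 with the whole list), the promoter difference was -3.80, the B box difference -4.42 and X minus autosomes 2.28. With 100 bp in place of 200 the thresholded share was 36.5% and X minus autosomes 0.155; with 500 bp they were 27.9% and 1.70, and the overlap with both replicates 24.9%. With regions overlapping the gene, X minus autosomes was 0.945. The overlap with both replicates was 24.6% when 50% of the narrower region had to be shared and 24.4% when the summit had to lie inside. With the narrower promoter window the difference was 21.2. The cause of the other shifts was not tested. The split by neighbouring tRNA genes ran from 3.40 points in the upper 50% of the list to 14.7 on X, always in the same direction. That of TCTCT ran from 14.8 on autosomes to 31.2 with 100 bases. The word was picked from these same genes, so its unchanged direction is no separate support. The upstream median of the summits and the higher share than all regions held in every setting tried for them. Depth is unknown and 2 replicates give only a rough spread.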

Other observations

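The tRNA-Trp genes include loci known from genetics for mutant alleles that suppress amber stop codons. They are given here by name, and were chosen after their values were seen. Of 12 tRNA-Trp genes, 2 had a thresholded summit (16.7%, interval 4.70 to 44.8%), near the 19.9% of all 612 tRNA genes. The highest regions of replicate 1 gave 1 of the 12 and those of replicate 2 gave 2. At sup-5 the region chrIII:8678402-8678765 had a signal of 94.9, with 56.8 in replicate 1 and 45.9 in replicate 2, and its summit lay 16 bp from the gene on the upstream side. At sup-7, whose replicates are given above, the signal was 48.2, near the lower end of the thresholded list. Signals of 12.4 to 25.1, not thresholded, were listed at sup-24 (12.4), sup-29 (16.2), Y4C6B.t2 (19.9) and rtw-6 (25.1). No summit was listed within 200 bp of sup-21, sup-28, sup-33, rtw-5, Y95B8A.t1 and F49C5.t1.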
